A study of Mus musculus with 73 samples.

Results

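Of 73 single cells picked by hand from the mouse cochlea as Casz1-null inner hair cells, 17 held transcripts of Rprm at 10 CPM or more (CPM, counts scaled to a common library total). These Rprm cells were chosen by their measured Rprm level. They were set against 18 cells with Rprm under 10 CPM and Slc26a5, the gene of prestin, at 100 CPM or more, called prestin-matched cells. The other 38 cells, with Rprm under 10 CPM and Slc26a5 under 100 CPM, are given only as a backdrop. Because measured Rprm and prestin chose the cells, their levels are a description of the choice.

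Inner hair cells turn sound into transmitter release onto the auditory nerve, and outer hair cells change length through prestin, a motor protein of their side membrane, and so amplify sound. Casz1 encodes a zinc-finger transcription factor. Rprm encodes Reprimo, a small membrane protein known from cultured cells as a p53-induced brake on the cell cycle. Fgf8 encodes a secreted growth factor that inner hair cells make in the developing cochlea.

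The cells of all 3 sets shared 1 genotype and 1 age, postnatal day 14: Atoh1-Cre/+, Casz1 flox/flox, the Ai47 GFP reporter over a tdTomato reporter, and Fgf8-Flpo/+. Cre driven by Atoh1, which is active in developing hair cells in general, recombined Casz1 and the GFP reporter, while Flp driven by Fgf8 recombined the tdTomato reporter, and cells carrying both colours were collected. Cells in which either driver had not acted were therefore not sampled, and wild-type cells were not analysed here. No animal is named in the labels, so the 73 cells count as 1 sample, and the comparison between sets of cells has no replicate check, no test and no p-value.

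Total counts were 14294106 to 37183702 in Rprm cells, 11027945 to 24543427 in prestin-matched cells and 12514526 to 35881810 in the others. A median of 8249 genes had a count in Rprm cells, against 8362.5 in prestin-matched cells. Mitochondrial transcripts took a median of 5.39% of counts in Rprm cells, against 5.02% in prestin-matched cells, and ribosomal protein transcripts 2.24% in Rprm cells, against 1.76% in prestin-matched cells. Of the Rprm cells, 10 had library numbers of 37 or higher, as did 11 of the prestin-matched cells. Of the inner hair cell genes, Slc17a8, the glutamate transporter of synaptic vesicles, was at 436, 1127 and 1700 CPM (lowest, median and highest) in Rprm cells, and at 640, 1391 and 2992 CPM in prestin-matched cells. Otof, the calcium sensor of vesicle release, had a median of 2249 CPM in Rprm cells and 2801 CPM in prestin-matched cells. The outer hair cell gene Ocm was also abundant, with a median of 3705 CPM in Rprm cells and 4341 CPM in prestin-matched cells. The inner hair cell genes Calb2 and Atp2a3 were lower in Rprm cells than in the other cells. Calb2 had a median of 1826 CPM in Rprm cells, 6029 CPM in prestin-matched cells and 10578 CPM in the other cells. Atp2a3 had 0.643, 121 and 536 CPM in the same sets. The 8 prestin-matched cells with prestin of 300 CPM or more were as low, with medians of 1677 CPM for Calb2 and 0.131 CPM for Atp2a3.

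Rprm occupies bases 54084093 to 54085552 of chromosome 2 in mm10, minus strand. It has 1 exon, whose 327 coding bases give 109 residues with the stop codon left out. In the GENCODE annotation no gene overlaps it, and the nearest is 14878 bases away. The annotation used for counting is not given. The stretch before its start is shown because Rprm was the transcript on which the cells were chosen. It is the RefSeq promoter window of build GRCm38.p6 at chr2:54085553-54085802, minus strand, with the letters of a GC box on the opposite strand in capitals:
Rprm: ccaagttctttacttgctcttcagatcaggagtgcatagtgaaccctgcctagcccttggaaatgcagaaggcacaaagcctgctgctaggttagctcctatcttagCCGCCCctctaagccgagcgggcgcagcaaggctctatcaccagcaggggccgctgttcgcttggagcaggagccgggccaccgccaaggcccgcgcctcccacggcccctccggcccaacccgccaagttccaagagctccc
The GC box GGGCGG occurred 1 time, beginning at -143 from the start, and was present in 35.7% of 32851 mouse promoter windows, each 250 bases before to 50 after a start. The same window held 0 matches on either strand to the E-box CANNTG (72.3% of windows), the TATA box TATAAA (13.6%) or the GATA letters AGATAA (11.2%). The 250 bases shown hold 13 CG pairs, against a median of 6 over promoters, and 31.5% of promoters hold as many or more.

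Rprm divided the cells with a wide gap around the threshold. Its level in the 17 Rprm cells was 20.4, 168 and 699 CPM (lowest, median and highest). The member just inside the threshold was library 3, with 20.4 CPM from 368 counts. The cell just outside was library 68, with 1.06 CPM from 26 counts, followed by library 57 with 0.389 CPM. No Rprm count was present in 48 cells, and 8 cells had counts but stayed under 10 CPM. The share of cells at 10 CPM was 23.3% (exact Clopper-Pearson 95% interval 14.2 to 34.6), an interval that covers counting error over cells only.

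Prestin was matched only in part. Slc26a5 was at 19.6, 447 and 1132 CPM in Rprm cells, and at 126, 202 and 1229 CPM in prestin-matched cells, and the mean log2(CPM + 1) was 0.26 higher in Rprm cells. Of the Rprm cells, 14 had prestin at 319 CPM or more, and libraries 3, 67 and 44 lay below with 87.1, 53.9 and 19.6 CPM. The prestin-matched cells instead formed 10 cells at 126 to 213 CPM and 8 cells at 328 to 1229 CPM, with none between. The highest prestin level left out of the comparison was 89.7 CPM, in library 63. Because of this gap a comparison over a shared prestin range was added after the values were seen, with both sets at prestin of 300 CPM or more. It holds 14 Rprm cells (median 497 CPM) and 8 prestin-matched cells (median 676 CPM), and it reuses cells of the first comparison, so it is no independent check.

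**Figure D1:**
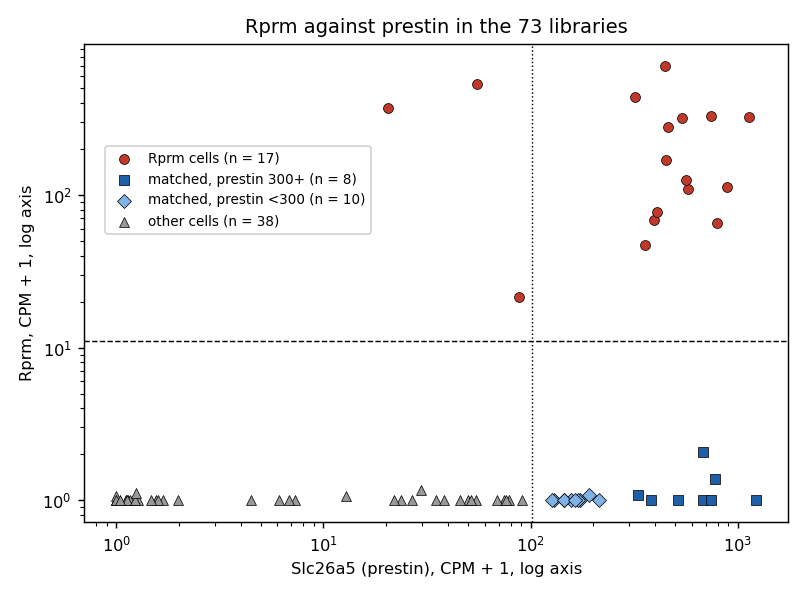
Rprm against Slc26a5 in each of the 73 libraries, both in CPM + 1 on log axes; the dashed and dotted lines mark the thresholds of 10 CPM for Rprm and 100 CPM for prestin. The 17 Rprm cells all lie at 20.4 CPM of Rprm or more, 3 of them left of the prestin line, and the prestin-matched cells fall into 8 cells in the prestin range of most Rprm cells and 10 cells below it.

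Fgf8 was present in every Rprm cell and in most prestin-matched cells. Its level was 12.7, 83.9 and 222 CPM in Rprm cells, against 2.89, 61.7 and 141 CPM in prestin-matched cells and 0, 7.07 and 217 CPM in the others, so the ranges overlapped. It reached 10 CPM in 17 of 17 Rprm cells and in 15 of 18 prestin-matched cells. The mean log2 level was 1.01 higher in Rprm cells, with an SD over cells of 1.06 in Rprm cells and 1.60 in prestin-matched cells. Leaving out 1 library at a time gave 0.81 (without library 12) to 1.17, and 14 such libraries each brought it under 1. With both sets at prestin of 300 CPM or more, the difference in Fgf8 was 0.04, and in 7 against 7 cells paired within 0.25 log2 units of prestin, a setting also added after the values were seen, it was -0.30. The setting at 300 CPM leaves out the Rprm cells 3, 44 and 67 as well as the prestin-matched cells with less prestin, and which of these moved the value was not tested.

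The calcium-binding proteins of hair cells showed how the prestin levels and the sets run together. Calb2 encodes calretinin, a calcium buffer abundant in inner hair cells. It was at 347, 1826 and 6147 CPM in Rprm cells, against 1367, 6029 and 17401 CPM in prestin-matched cells. Within the prestin-matched cells, the 8 with prestin of 300 CPM or more had 1367 to 5960 CPM and the 10 with less had 4193 to 17401 CPM, so most of the range of Rprm cells lay with the 8. The difference in Calb2 was -1.57 over the full sets and -0.27 at prestin of 300 CPM or more.

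Calb1, which encodes calbindin, ran the other way. It was at 789, 2975 and 5882 CPM in Rprm cells, against 0, 2081 and 6768 CPM in prestin-matched cells. All 17 Rprm cells held it at high levels, as did the 8 prestin-matched cells at 300 CPM or more of prestin (2145 to 6768 CPM). Its difference was 2.97 over the full sets and -0.47 at prestin of 300 CPM or more.

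S100a1, an EF-hand calcium-binding protein, was the official gene whose level ranked most closely with Rprm over all 73 cells (Spearman 0.71). Of these cells 48 had no Rprm count, and within the 17 Rprm cells the value was 0.16. S100a1 was at 3204, 8092 and 10914 CPM in Rprm cells, against 174, 1128 and 8646 CPM in prestin-matched cells and 95.2, 710 and 2457 CPM in the others. Rprm cells were thus all above the others in S100a1, while 7 of the 8 prestin-matched cells with high prestin overlapped them. The difference was 1.96 over the full sets and 0.49 at prestin of 300 CPM or more. Over the calcium buffer list, 2 of 11 genes compared were higher in Rprm cells by 1 or more (Calb1 and S100a1) and 2 were lower (Calb2, and Cabp1 at -1.40). Of all genes compared, 10.2% were higher and 15.7% lower by as much. At prestin of 300 CPM or more none of the 11 differed by 1 or more, beside 15.4% of all genes higher and 16.9% lower.

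**Figure D2:**
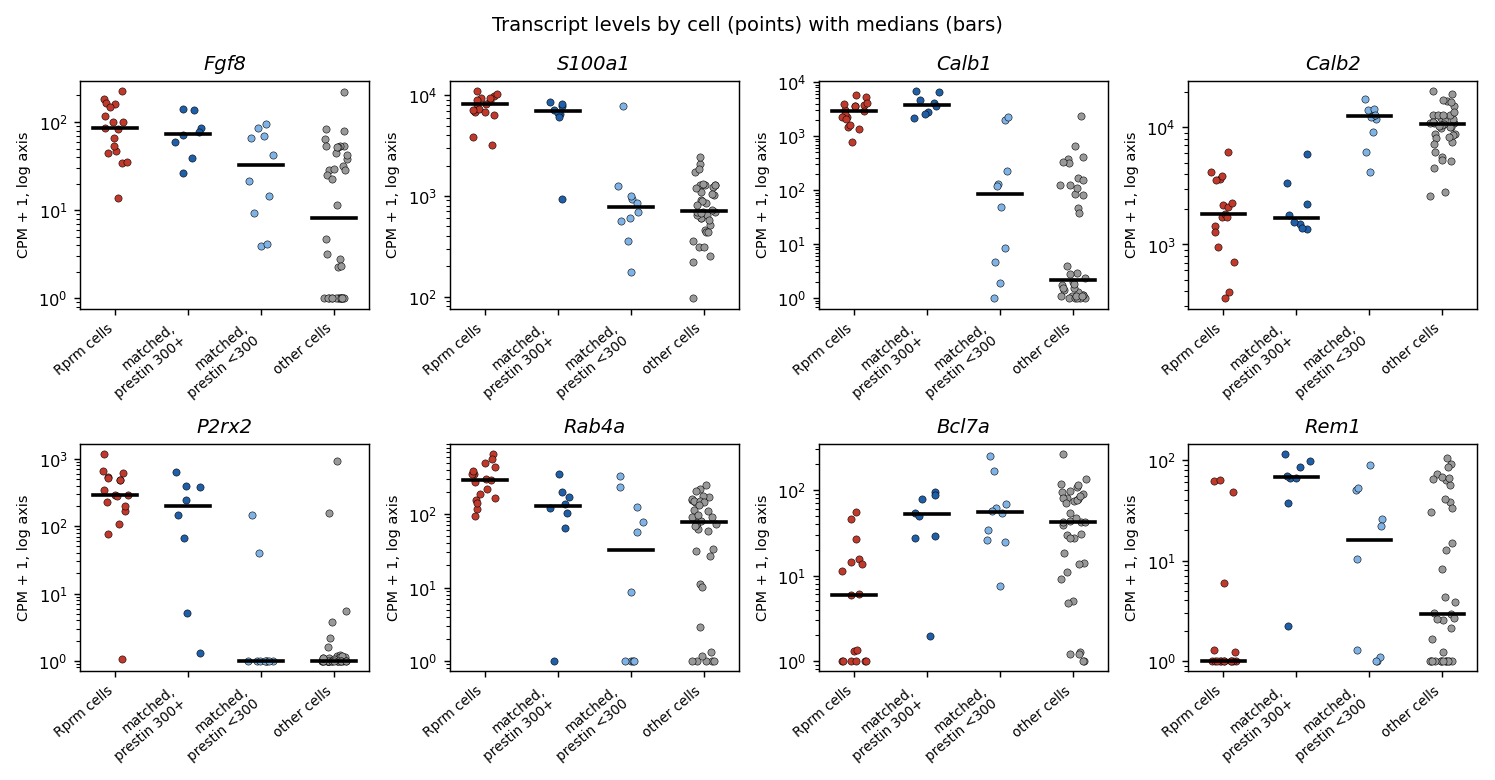
Levels of 8 genes in each cell, in CPM + 1 on a log axis, with Rprm cells leftmost, then prestin-matched cells with prestin of 300 CPM or more, those with less, and the other cells; bars are medians. Calb1, Calb2 and S100a1 of the Rprm cells lie with the second column, whereas Bcl7a and Rem1 are lower in most Rprm cells than in that column.

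Across genes, differences were broad in both directions. Of 8617 genes whose mean over all cells was at least 10 CPM (Rprm and Slc26a5 left out), 877 were higher in Rprm cells by 1 or more in mean log2(CPM + 1), which is 10.2% of genes, and 1353 were lower by as much (15.7%). The median over genes was -0.09. A rule on pairs of 1 Rprm cell and 1 prestin-matched cell was then added, with tied pairs split evenly between the directions. When at least 75% of pairs so counted had also to go the same way, 63 genes were higher (0.731%) and 75 lower (0.87%). Pairs with no count in either cell are ties, so fewer than 75% of pairs may differ strictly in that direction. No gene compared had ranges that did not overlap between the sets. At prestin of 300 CPM or more, with fewer cells, 1329 genes were higher (15.4%) and 1457 lower (16.9%).

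The 15 genes highest in Rprm cells under the rule on pairs were P2rx2, Tspan8, Wdr95, Pole, Hpcal1, Rab27b, Hs3st6, Litaf, Myh14, Ucp2, Ccer2, Rab4a, Serinc5, Pggt1b and Tnc, with differences of 3.04 to 4.36. They were picked for these differences, so the sizes are a description. P2rx2, an ATP-gated cation channel of hair cells, was at 0.0577, 294 and 1175 CPM in Rprm cells, against 0, 2.18 and 642 CPM in prestin-matched cells. P2rx2 reached 10 CPM in 16 of 17 Rprm cells (94.1%, exact interval 71.3 to 99.9) and in 2 of the other 38. It did so in 8 of 18 prestin-matched cells (44.4%, 21.5 to 69.2). Of the 8 prestin-matched cells with prestin of 300 CPM or more, 6 reached it (75%, 34.9 to 96.8). These intervals cover counting error over cells only, and P2rx2 was picked for its difference, so they are no test. Tspan8, a tetraspanin of the cell surface, was at 0, 414 and 1394 CPM in Rprm cells, against 0, 0.255 and 1325 CPM in prestin-matched cells. Pole, the catalytic subunit of DNA polymerase epsilon, lies 2337 bases from P2rx2 on chromosome 5, on the other strand. The strand of counting is not stated, but the 2 genes do not overlap in the annotation.

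Rab4a, a small GTPase of endosome recycling, was the most even of the 15 across Rprm cells. It was at 92.8, 289 and 656 CPM in Rprm cells, against 0, 90.5 and 349 CPM in prestin-matched cells. In 85.0% of pairs the Rprm cell was the higher, and in 82.1% of pairs at prestin of 300 CPM or more. The SD of its log2 level over cells was 0.82 in Rprm cells and 3.35 in prestin-matched cells.

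Most of these differences were smaller at high prestin. All 15 kept their direction at prestin of 300 CPM or more and 10 kept a difference of 1 or more, and the median was 1.25 there, against 3.38 over the full sets. Of all genes, 15.4% were higher by 1 or more there. The setting reuses cells on which the 15 were picked, so what they kept is no independent check. Rab27b, a GTPase of vesicle traffic, had 3.54 over the full sets and 0.33 at high prestin, and Hpcal1, a neuronal calcium sensor protein, had 3.59 and 0.65. Those that stayed furthest apart were Tspan8 (2.46), Myh14 (2.44), a nonmuscle myosin heavy chain whose human gene is a deafness gene, Hs3st6 (1.87), an enzyme that sulfates heparan sulfate, Rab4a (1.84) and P2rx2 (1.84). Ucp2, a mitochondrial carrier, had 1.48 there.

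The 15 genes lowest in Rprm cells were Pter, Aph1b, Rnd1, Bin1, Bcl7a, Cwc25, Ralgps2, Osbp2, Crem, Dhx32, Usp20, Rem1, Slc35e4, Rab3gap2 and Cutal, with differences of -3.87 to -2.85. Bcl7a, a subunit of the SWI/SNF chromatin remodeller, was at 0, 4.92 and 54.6 CPM in Rprm cells, against 0.943, 52.9 and 250 CPM in prestin-matched cells. The Rprm cell was the higher in 10.1% of pairs, the lowest share among the 15. Rem1, a small GTPase that inhibits voltage-gated calcium channels, was at 0, 0 and 62.7 CPM in Rprm cells, against 0, 42.6 and 114 CPM in prestin-matched cells. It reached 10 CPM in 3 of 17 Rprm cells and in 12 of 18 prestin-matched cells. Aph1b, a subunit of gamma-secretase, was at 0, 0.135 and 95 CPM in Rprm cells, against 0, 45.4 and 244 CPM in prestin-matched cells.

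Unlike the higher genes, most of the lower ones stayed near their size at prestin of 300 CPM or more. All 15 kept their direction and 12 kept a difference of -1 or less, and the median was -2.97 there against -3.14 over the full sets. Of all genes, 16.9% were at -1 or less there. The 15 were picked over the full sets and this setting reuses those cells, so what they kept is no independent check. Rem1 stood at -4.10, with the Rprm cell higher in 6.25% of pairs, Ralgps2, an exchange factor for Ral GTPases, at -3.56, Aph1b at -3.52, Cwc25, a splicing factor, at -3.37 and Rnd1, a small GTPase, at -3.34. Pter (-0.70), Osbp2, an oxysterol-binding protein (-0.07), and Crem, a transcription factor of cAMP signalling (-0.58), were no longer past -1, and Bin1, a membrane-curving adaptor, had -1.37 against -3.37 over the full sets. Pter reached 10 CPM in 0 Rprm cells (highest 0.702 CPM), in 1 of the 8 prestin-matched cells with high prestin and in 9 of the 10 with less. The contrast between higher and lower genes in how much they kept is a description over 15 genes each and was not tested.

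**Figure D3:**
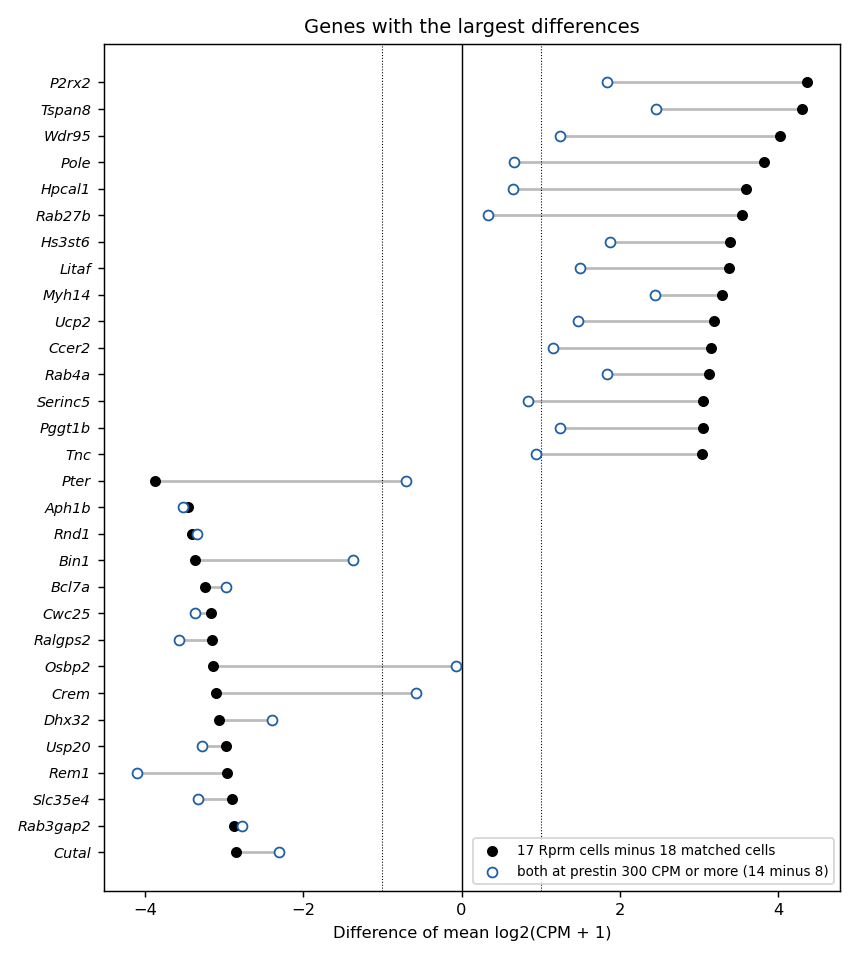
Differences of mean log2(CPM + 1), Rprm cells minus prestin-matched cells, for the 15 highest and 15 lowest genes over all 17 and 18 cells (filled) and at prestin of 300 CPM or more (open); dotted lines mark 1 and -1. The open points of the higher genes lie closer to 0, while 12 of the 15 lower genes stay at -1 or below.

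**Figure D4:**
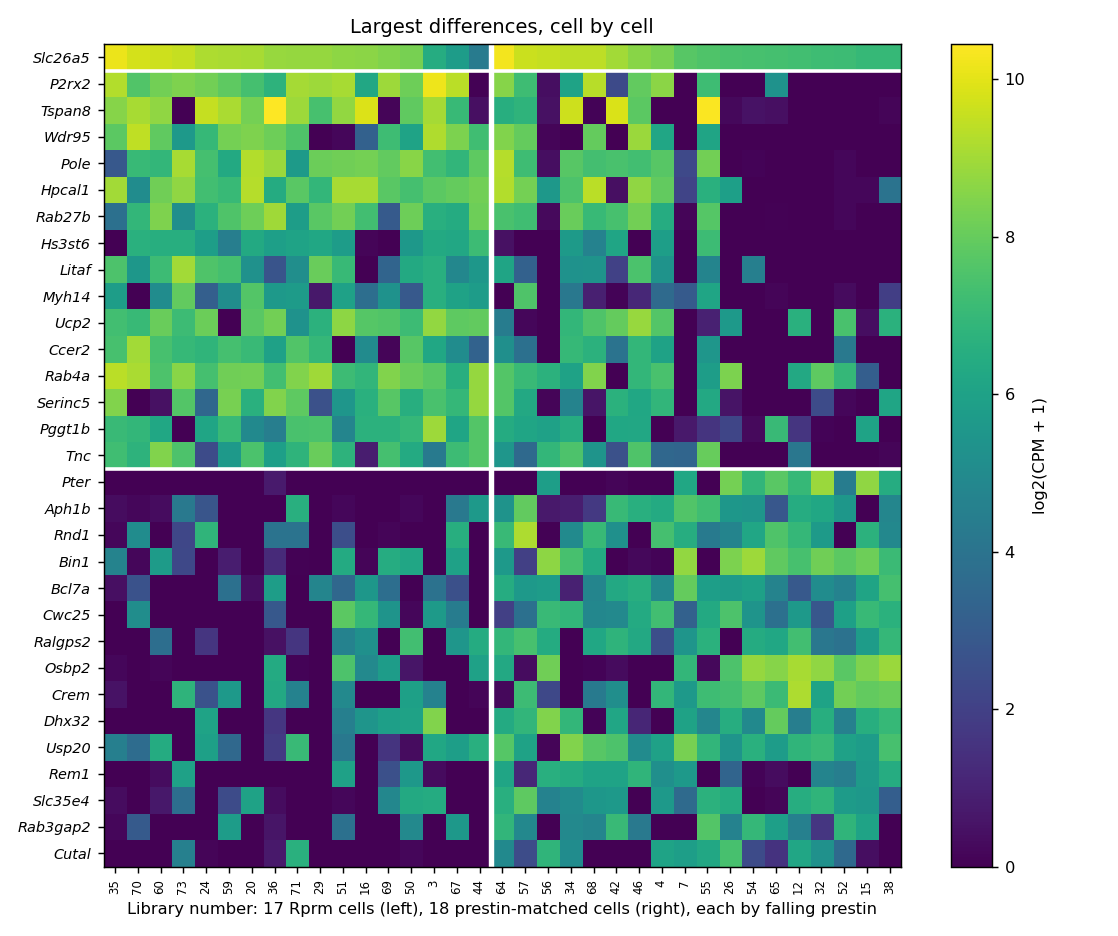
Levels of Slc26a5 and the same 30 genes as log2(CPM + 1) in each of the 17 Rprm cells (left) and 18 prestin-matched cells (right), each set ordered from high to low prestin and marked by library number. Of the prestin-matched cells, most of those with high prestin and library 55 share the higher genes with the Rprm cells, and library 56 lacks most of them despite its prestin.

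In some single cells these levels did not go with the prestin level, and why was not tested. Library 55 had prestin of only 191 CPM and Rprm under 10 CPM, yet held S100a1 at 7790 CPM, Calb1 at 2314 CPM, P2rx2 at 147 CPM, Rab27b at 208 CPM and Sox10 at 176 CPM, all within the range of Rprm cells. Library 56 had prestin of 743 CPM but S100a1 at 925 CPM, P2rx2 at 0.292 CPM, Rab27b at 0.195 CPM and Sox10 at 0 CPM. Its S100a1, Rab27b and Sox10 were below every Rprm cell, and its Calb1, at 6768 CPM, was above. Of the other cells, library 30 had prestin of 53.7 CPM with P2rx2 at 941 CPM, Sox10 at 87.7 CPM and Calb1 at 2354 CPM. These 3 libraries were singled out after their values were seen.

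The 3 Rprm cells with low prestin resembled the other members in most of these genes. Libraries 3, 44 and 67 had S100a1 at 3204, 6817 and 8679 CPM, above the highest of the 38 other cells (2457 CPM). Their Calb1 was at 3003, 789 and 3678 CPM. Rab27b was at 94.1, 282 and 86.0 CPM and Sox10 at 276, 178 and 45.8 CPM in the same libraries. P2rx2 was at 1175 CPM in library 3 and 664 CPM in library 67, but at 0.0577 CPM in library 44, the only Rprm cell under 10 CPM. Ocm, the outer hair cell calcium buffer oncomodulin, was at 214, 1422 and 832 CPM, against a median of 3705 CPM over all Rprm cells.

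The 10 official genes whose levels ranked most like Rprm over all 73 cells were S100a1 (Spearman 0.71), Gpx2 (0.70), Tnc (0.69), Litaf (0.69), Nedd9 (0.68), P2rx2 (0.68), Ecel1 (0.68), S100a13 (0.68), Ifi203-ps (0.67) and Sox10 (0.67). These values describe cells of 1 sample, most of which had no Rprm count, and carry no p. Within the 17 Rprm cells the same genes ranged from -0.46 for Sox10 to 0.39 for Tnc. Gpx2, a glutathione peroxidase, was at 10118, 14499 and 19217 CPM in Rprm cells, against 2098, 5906 and 22475 CPM in prestin-matched cells. S100a13, another S100 protein, had a difference of 2.81 over the full sets and 1.47 at high prestin, with the Rprm cell higher in 86.3% and 76.8% of pairs. Ecel1, a membrane metallopeptidase, had 3.90 and 1.22. Ifi203-ps is annotated as a pseudogene, so its reads are uncertain against related copies.

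Over the full sets, inner and outer hair cell genes each held members that went both ways. Their counts are to be read beside the 10.2% of all genes higher and the 15.7% lower. At prestin of 300 CPM or more these shares were 15.4% and 16.9%. Of the inner hair cell genes, 10 of 11 passed the filter on mean level, 1 was higher in Rprm cells (Fgf8) and 2 lower (Calb2 and Atp2a3), with a median of -0.36 against -0.09 over all genes. At prestin of 300 CPM or more 3 were higher and 0 lower, with a median of 0.24: Slc7a14 (1.51), Atp2a3 (1.45) and Tbx2 (1.04), while Calb2 (-0.27) and Fgf8 (0.04) were within 1 of 0. Atp2a3, which pumps calcium into the endoplasmic reticulum, was at 0, 0.643 and 164 CPM in Rprm cells, against 0, 121 and 297 CPM in prestin-matched cells. Its difference was -1.95 over the full sets but had the opposite sign at high prestin, where 7 of the 8 prestin-matched cells were under 10 CPM. Of the outer hair cell genes, 10 of 14 passed the filter, 4 were higher and 2 lower, with a median of 0.70. Lbh, a transcription cofactor (1.59), Kcnn2, a potassium channel opened by calcium at efferent contacts (1.36), Chrna10, part of the acetylcholine receptor at efferent contacts (1.09), and Strip2 (1.03, but -0.01 as a difference of medians) were higher. Lmod3, an actin nucleator (-2.24), and Car7, a carbonic anhydrase (-1.04), were lower. At prestin of 300 CPM or more the median was -0.13, with Lbh at 1.22 and Strip2 at 2.42 still higher, Lmod3 at -1.37 still lower, Chrna10 at -1.35, and Kcnn2 (0.86) and Car7 (-0.65) no longer past 1 in size. The 16 general hair cell genes compared, of 17, held 0 genes past 1 in either direction, from -0.95 for Tmc1, the transduction channel subunit, to 0.41 for Barhl1, a transcription factor.

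Genes picked earlier in these same cells for following prestin also differed between the sets. Of 15 genes that rank with prestin, 8 were higher in Rprm cells and 0 lower (median 1.49), and of 14 that rank against it, 0 were higher and 7 lower (median -1.01). At prestin of 300 CPM or more the medians were 0.02 and 0.30, and of the first list 0 were higher and 0 lower. Of the second list 3 were higher there, Atp2a3, Rps6ka2 (1.09) and Igfbp5 (1.20), and 0 lower. Igfbp5, an insulin-like growth factor binding protein, was at 0, 9.51 and 235 CPM in Rprm cells, against 0, 863 and 4229 CPM in prestin-matched cells. Of all genes, 10.2% were higher and 15.7% lower over the full sets, and 15.4% and 16.9% at prestin of 300 CPM or more. Because both lists were chosen in these libraries, their medians and counts are no independent evidence.

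Genes of the p53 pathway and the cell cycle, around which Reprimo is known, went both ways. Of 34 listed genes, 17 passed the filter on mean level, of which 3 were higher in Rprm cells and 4 lower, beside 10.2% and 15.7% of all genes, with a median of -0.34. Zmat3, a p53-induced RNA-binding protein, was at 12.4, 137 and 271 CPM in Rprm cells, against 0.0907, 45.2 and 271 CPM in prestin-matched cells, with a difference of 1.85 and of 1.87 at high prestin. Gadd45b, a stress sensor (1.77, and 0.59 at high prestin), and Mdm4, an inhibitor of p53 (1.05, and 0.64), were also higher. Trp53 itself was at 0, 0.128 and 171 CPM in Rprm cells, against 0, 24.4 and 161 CPM in prestin-matched cells, a difference of -1.41 and of -2.14 at high prestin. Ccnd3, a cyclin (-1.79), Gadd45a (-1.30) and Ccng1, a p53-induced cyclin (-1.20, but 0.14 as a difference of medians), were lower too. At high prestin Ccnd3 (-0.81) and Gadd45a (-0.89) were no longer past -1, Ccng1 was at -1.89, and Mdm2, a ligase that degrades p53 (-1.57), and Plk2, a polo-like kinase (-1.23), were lower. Cdkn1a, the p53-induced inhibitor of cyclin-dependent kinases, differed by 0.14, with medians of 395 CPM in Rprm cells and 413 CPM in prestin-matched cells.

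Channel, synapse and bundle genes differed in a few members, in counts to be read beside the 10.2% of all genes that were higher and the 15.7% that were lower. Of 10 genes of the efferent synapse and potassium channels compared, of 13, 3 were higher (P2rx2, Kcnn2 and Chrna10) and 1 lower (Kcnh2 at -1.09). At high prestin P2rx2 alone of these stayed higher, Kcnn2 (0.86) and Kcnh2 (-0.81) were no longer past 1 in size, and Chrna10 was at -1.35. Of 18 ribbon synapse genes compared, of 20, 0 were higher and 4 lower, with a median of -0.47. The lower genes were Rimbp2 (-1.40) and Erc2 (-1.23), scaffolds of the active zone, Unc13a (-1.17, but 0.02 as a difference of medians), a vesicle priming factor, and Pclo (-1.15), a scaffold of the ribbon. At high prestin the same 4 stood at -1.17, -1.17, -1.21 and -1.51, while the median over the list was -0.03 and 4 other members were higher. Of all genes, 15.4% were higher there and 16.9% lower. Of 29 hair bundle genes compared, of 31, Myo3b, a motor of stereocilia tips, was higher (2.82, and 0.34 at high prestin), and Pcdh15 (-1.46) and Cdh23 (-1.28), which form the tip link, and Adgrv1 (-1.04, but 0.41 as a difference of medians), an ankle link receptor, were lower. At high prestin Pcdh15 stood at -1.45, and Cdh23 (-0.45) and Adgrv1 (-0.59) were no longer past 1 in size. Among the other bundle genes there, Espnl (1.47) and Strc (1.22) were higher and Myo1h (-1.36) was lower.

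Regulators and general programmes also held a few genes past 1, beside the same shares over all genes. Of 22 hair cell transcription factors compared, of 29, Six2, a homeobox factor (2.07), and Lbh were higher and Thra (-1.37) and Thrb (-1.23, but 0.46 at high prestin), the thyroid hormone receptors, lower. At high prestin Six2 (0.81) and Thra (-0.64) were no longer past 1 in size. Casz1 was at 0.106, 42.2 and 283 CPM in Rprm cells, against 0, 29.3 and 120 CPM in prestin-matched cells, a difference of 0.57. The labels do not give the floxed exons, and reads from the remaining exons count, so Casz1 does not check the deletion. Of 6 genes of the FGF pathway compared, of 19, Fgf8 and its feedback phosphatase Dusp6 (1.07, and -0.47 at high prestin) were higher. Of 15 immediate early and stress genes compared, of 16, Ier2 (1.77), Nfkbia (1.27, but -0.08 at high prestin) and Atf3 (1.22) were higher and 0 lower. In the same list at high prestin, Atf3 (2.06), Fos (1.60) and Ier2 (1.21) were higher and Dusp1 (-1.48) was lower. Of 16 respiratory chain genes, 7 calcium pump genes and 5 immature hair cell genes compared, Atp2a3 alone differed by 1 or more over the full sets. At prestin of 300 CPM or more, 4 of the 7 calcium pump and exchanger genes were higher: Atp2a2 (1.72), Slc8a1 (1.47), Atp2a3 (1.45) and Slc8a2 (1.03). Over all genes, 15.4% were higher and 16.9% lower in that setting. Of 8 housekeeping genes, B2m (1.42, and -0.54 at high prestin) and Tbp (1.83) were higher, a size that unrelated reference genes also reach in these cells.

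Markers of other cell types were present in part. Of 68 markers of 8 other cell types, 37 reached 10 CPM in no Rprm cell and 46 in no prestin-matched cell. The summed level of 9 glia markers was 11.1, 172 and 498 CPM in Rprm cells, against 0, 60.1 and 216 CPM in prestin-matched cells and a median of 0.613 CPM in the others. Most of it came from Sox10, a transcription factor of glia and of supporting cells, at 11.1, 84.2 and 276 CPM in Rprm cells, against 0, 0.115 and 215 CPM in prestin-matched cells, and from Cnp, with a median of 36.9 CPM in Rprm cells and 0 CPM in prestin-matched cells. Mbp, Pmp22 and Mag, genes of myelin, reached at most 0.231 CPM in any Rprm cell. The Sox10 difference was 3.56 over the full sets and 0.82 at high prestin, where prestin-matched cells had a median of 105 CPM.

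Supporting cell markers summed to 0, 38.4 and 1217 CPM in Rprm cells, against 0, 0.314 and 302 CPM in prestin-matched cells, and the highest value was library 67. That library held 6 rare markers at 50 CPM or more, among them Mal and Fabp7, which no other Rprm cell held at 10 CPM. A rare marker, one detected in under 10 of all cells, reached 50 CPM in 7 Rprm cells and in 4 prestin-matched cells. Without these 11 cells Gjb6, a gap junction gene of supporting cells, had a difference of -0.35 in place of 1.58, and Lum, a matrix gene of mesenchyme, -0.18 in place of 1.64. Mesenchyme, immune, blood, endothelium and stria markers had summed medians of 0 to 13.9 CPM in Rprm cells and 0 to 3.87 CPM in prestin-matched cells, and neuron markers 334 CPM in Rprm cells and 336 CPM in prestin-matched cells. Their part in the other differences was not tested beyond this removal.

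**Figure D5:**
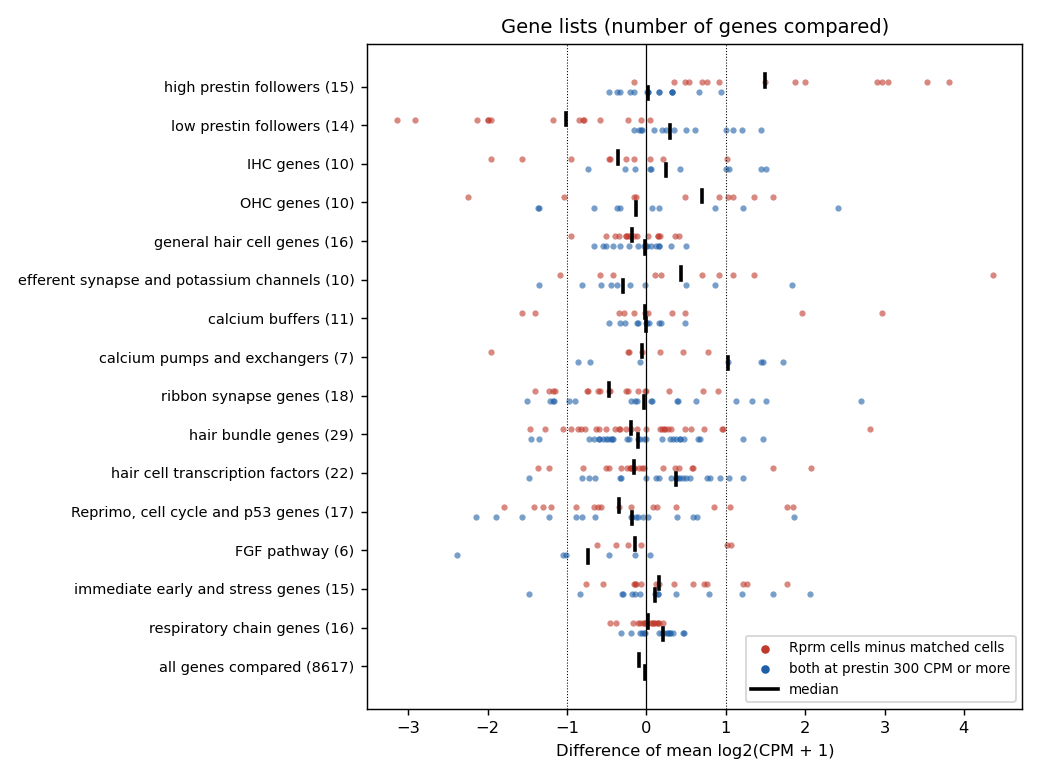
Differences of mean log2(CPM + 1), Rprm cells minus prestin-matched cells, for the genes of 15 lists over the full sets (red, upper row) and at prestin of 300 CPM or more (blue, lower row), with medians as black bars and those of all 8617 genes at the bottom. The medians of the genes that follow prestin, 1.49 and -1.01 over the full sets, lie at 0.02 and 0.30 at high prestin.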

How the data were processed

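The counts analysed were deposited by the authors as 1 table of 55292 rows and 73 columns, all of which matched a sample title. Per the labels' protocols, cDNA came from the Smart-Seq HT kit. It uses no molecular identifiers, and PCR copies are therefore counted. The build mm10 and the tools featureCounts 2.0.1, StringTie 2.2.1 and HISAT2 2.2.1 are named in the submitters' processing notes. Their roles, the annotation and the use of strand are not given in the sources used here, so overlapping genes and near-identical copies are uncertain.

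The reporter row WPRE (0.0161% of counts) was kept out of library totals. Counts were scaled to CPM, and differences are of mean log2(CPM + 1), which understates changes of low genes. A gene was called higher or lower at 1 log2 unit, and detected at 10 CPM. The cells count as 1 sample, so no test was made. Members and gene lists were chosen with earlier results of these data known. Named genes are members of the 25 lists and the 10 official genes ranked most like Rprm. They also include the 15 highest and 15 lowest official genes with at least 75% of pairs in the same direction, ties split evenly. The difference and pair steps were tested on simulated data. Gene positions come from GENCODE, same build, and the promoter from RefSeq. A share of cells carries an exact interval of counting error over cells only. Alternatives varied thresholds, matching, pseudocount, scaling, filters and cells. TMM scaling used edgeR 4.0.16 in R 4.3.3, and all else Python 3.11.15 with matplotlib 3.10.9, scipy 1.17.1, pandas 2.3.3 and numpy 2.4.6.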

Additional observations from a re-analysis of the deposited data

Results flagged for a closer look

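WPRE, an element of reporter constructs that was kept out of every comparison, was present above 3 counts in all 73 cells. Its level was 44.1, 121 and 357 CPM (lowest, median and highest) in Rprm cells, 61, 147 and 278 CPM in prestin-matched cells and 48.4, 167 and 429 CPM in the others.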

How the results depend on the processing

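Scaling by TMM, or without mitochondrial and ribosomal protein genes, kept all 83 named genes that were called. Of these, 54 were kept with comparison cells at prestin of 200 CPM or more, 54 with a pseudocount of 10, 69 with a difference of medians, 69 without cells with rare markers of other types, and 73 in libraries 37 to 73. With a pseudocount of 10, 188 genes were higher and 237 lower, in place of 877 and 1353. Higher genes numbered 1398 in libraries 37 to 73, 1329 at prestin of 300 CPM or more and 1746 in 7 pairs within 0.25 log2 units of prestin, where Fgf8 stood at -0.2998. These last 2 settings were chosen after seeing the data, hold few cells and kept 40 and 44 of the 83. Among the 83, signs turned for 10 at prestin of 300 CPM or more: Atp2a3 1.45, Igfbp5 1.204, Thrb 0.4599, Mlxipl 0.1932, Plekhg6 0.09688, Nfkbia -0.08348, Calb1 -0.4708, Dusp6 -0.4713, B2m -0.5429 and Chrna10 -1.354. In the 7 pairs they turned for Igfbp5 (1.545), Thrb (0.9832), Atp2a3 (0.6696), Mlxipl (0.02563), Nfkbia (-0.4068), Gadd45b (-0.6948), Calb1 (-0.7477) and Chrna10 (-2.844). With comparison cells at prestin of 200 CPM or more they turned for Atp2a3 (0.7824), Mlxipl (0.4815), Igfbp5 (0.4455), Dusp6 (-0.5386) and Chrna10 (-1.177). A difference of medians turned Adgrv1 (0.4089), Ccng1 (0.1378), Unc13a (0.02116) and Strip2 (-0.01286). Shc2 stood at 0.09673 in libraries 37 to 73, and without cells with rare markers of other types Lum stood at -0.1816 and Gjb6 at -0.3537. The cause of these turns was not tested. Leaving out 1 library at a time gave 829 to 918 genes higher and 1279 to 1452 lower and turned none of the 83, though Ocm and Tbx2, which were not called, crossed 0. It brought under 1 in size the calls, all near 1, of Strip2 (0.7191 without library 54), Adgrv1 (-0.7253, 29), Kcnh2 (-0.8126, 29), Fgf8 (0.8148, 12), Dusp6 (0.8174, 24), Shc2 (-0.8193, 32), Car7 (-0.8419, 69), Mdm4 (0.8605, 20), Atf3 (0.882, 64), Chrna10 (0.8882, 24), Thrb (-0.9195, 20), Unc13a (-0.9196, 64), Pclo (-0.9304, 15), Ccng1 (-0.946, 3), Cdh23 (-0.9837, 73) and Erc2 (-0.9929, 69), given at their weakest with the library left out. All 73 cells had Xist under 10 CPM, and 72 had a Y-linked gene at 10 CPM or more, so no split by sex was made. No paired analysis was possible because the cells form 1 group.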
